A study of Mus musculus with 23 samples.

Results

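The genes of glucose transport and glycolysis were followed in bone, from which the marrow had been spun out, of WT mice and mice labelled Sarm1-KO with and without type 1 diabetes (T1D). They were 34 genes with set symbols, running from the glucose transporters to lactate export and the entry of pyruvate into the mitochondrion. All 34 were found among the 67228 genes of the count table, and all 34 reached at least 10 counts in at least 5 libraries, as did 14364 genes in all. Each of the 23 libraries came from the femur and tibia of 1 hind limb of 1 female C57BL6/N mouse aged 11 weeks. The WT Control mice (n = 5) had received saline, and the WT T1D mice (n = 6) had received streptozotocin, a toxin of insulin-producing β cells, at 100 mg/kg by injection at 8 weeks of age and again on Day 2. KO Control mice (n = 6) and KO T1D mice (n = 6) were treated likewise, T1D lasted 3 weeks, and a further dose followed on Day 4 only where fed glucose had stayed under 300.0 mg/dL. The knockout was global, so that Sarm1, an NAD-consuming enzyme of axon degeneration, was deleted by design outside bone as well. In these bulk samples, fewer cells of a type and less RNA per cell cannot be told apart.

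Glucose enters cells through facilitative transporters, of which Slc2a1 (GLUT1) and Slc2a3 (GLUT3) act without insulin, whereas insulin moves Slc2a4 (GLUT4) to the surface of muscle and fat cells. Hexokinases trap glucose as glucose 6-phosphate, phosphofructokinase commits it to glycolysis under the control of fructose 2,6-bisphosphate made by the PFKFB enzymes, and the lower steps yield ATP and pyruvate. Many steps have tissue isoforms. Pfkm, Pgam2 and Eno3 are forms of muscle, Pklr and Bpgm serve red cells, Aldoc and Eno2 belong to nervous tissue, and Hk3 is a hexokinase of leukocytes. Osteoblasts are known to use aerobic glycolysis heavily, and mature red cells, which have no mitochondria, depend on glycolysis for ATP.

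Several libraries stood apart from the rest. Total counts ranged from 16938101 to 20135592. Markers of osteoblasts and osteocytes (11 genes) summed to 1899.7 TPM in A3905 and 1580.2 TPM in A3906, both WT T1D, and to at least 30682 TPM in every other library. The same mice had the highest erythroid marker sums (13 of 14 listed genes were in the table), at 472078 and 470768 TPM, against 235757 to 410433 TPM elsewhere. Skeletal muscle markers (15 genes) summed to between 348 TPM in A3676 (KO T1D) and 14463 TPM in A3903 (WT Control), with 13002 TPM in A3679 (KO Control). A1764 (WT T1D) held 96.3 TPM of 12 brain markers, a list chosen after its values were seen, against 8.33 to 13.5 TPM in the other 22 libraries. Sarm1 itself was counted at 1.17 ± 0.403 CPM (SD, n = 5) in WT Control, at 0.799 ± 0.503 CPM (n = 6) in KO Control, at 0.687 ± 0.293 CPM (n = 6) in WT T1D and at 1.19 ± 0.259 CPM (n = 6) in KO T1D. These counts did not set the mice labelled Sarm1-KO apart from WT mice, and since the sources used here do not place the deletion within the gene, they do not check it. By qPCR, the study reported less Sarm1 in knockout bone than in WT bone, a difference it called significant. IDs of 1 WT Control and 3 WT T1D mice began with A17 and all others with A36 to A39, and what this difference stands for is not given in the sources used here.

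Promoter sequence is shown for 4 genes on which the results turn: Hk2, whose WT groups did not overlap, Pklr and Bpgm, which varied with erythroid markers, and Pgam2, which varied with muscle markers. Each is the 250 bases before a RefSeq transcript start on GRCm38.p6, along the gene's own strand. Hk2 lies at chr6:82774455-82774704 (minus), Pklr at chr3:89135892-89136141 (plus), Bpgm at chr6:34476106-34476355 (plus) and Pgam2 at chr11:5803797-5804046 (minus).
Hk2: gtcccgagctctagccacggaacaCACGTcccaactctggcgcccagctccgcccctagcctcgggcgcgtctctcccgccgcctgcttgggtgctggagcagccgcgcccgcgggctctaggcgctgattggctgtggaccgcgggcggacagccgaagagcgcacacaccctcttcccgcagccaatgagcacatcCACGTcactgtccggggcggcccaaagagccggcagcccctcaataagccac
Pklr: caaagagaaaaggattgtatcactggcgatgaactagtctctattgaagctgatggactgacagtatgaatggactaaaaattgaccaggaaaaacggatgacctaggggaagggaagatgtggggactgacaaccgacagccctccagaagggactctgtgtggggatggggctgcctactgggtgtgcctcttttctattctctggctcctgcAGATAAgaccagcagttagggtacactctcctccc
Bpgm: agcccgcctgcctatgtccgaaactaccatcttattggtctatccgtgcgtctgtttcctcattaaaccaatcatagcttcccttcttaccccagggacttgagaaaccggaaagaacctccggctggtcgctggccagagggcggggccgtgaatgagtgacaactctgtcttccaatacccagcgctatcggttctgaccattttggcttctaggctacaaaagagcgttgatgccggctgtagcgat
Pgam2: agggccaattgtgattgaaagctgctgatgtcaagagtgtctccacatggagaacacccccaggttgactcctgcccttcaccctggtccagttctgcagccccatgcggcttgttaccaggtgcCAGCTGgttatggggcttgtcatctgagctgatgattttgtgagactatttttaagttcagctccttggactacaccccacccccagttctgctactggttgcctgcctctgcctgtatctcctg
Capitals mark matches on either strand to the hypoxia response core ACGTG in Hk2, to the GATA motif AGATAA in Pklr and to the E-box CAGCTG in Pgam2, and Bpgm was searched for AGATAA with no match. The matches began 226 and 52 bases before the start of Hk2, 35 bases before that of Pklr and 125 bases before that of Pgam2. A second Pklr window, at chr3:89136373-89136622, held no AGATAA. Slc16a1 and Hk1 were also searched for AGATAA, and Eno3 and Pfkm for CAGCTG. None of their windows held these exact letters in the 250 bases, although these genes varied with the same markers. The 300-base window of Eno3 held 1 CAGCTG, and other spellings of these motifs were not searched. Over 32851 RefSeq windows of 300 bases (250 before and 50 after a start), ACGTG was in 19.6%, AGATAA in 11.2%, CAGCTG in 16.3% and the KLF-type motif CACCC in 57.5%. Of the 51 windows of the 32 matched genes, ACGTG was in 41.2%, AGATAA in 15.7%, CAGCTG in 15.7% and CACCC in 68.6%. These are matches of letters only, some genes have several windows, and none of these motifs contains another.

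Transcript levels differed widely, as the plot of TPM (transcript counts scaled for length and depth) by gene shows. Gapdh, which oxidises glyceraldehyde 3-phosphate, had the highest mean over the 23 mice at 3615 TPM, followed by the aldolase Aldoa at 1026 TPM, the enolase Eno1 at 537 TPM, the isomerase Gpi1 at 447 TPM, the pyruvate kinase Pkm at 411 TPM and the lactate dehydrogenase Ldha at 344 TPM. Bpgm, which makes the 2,3-bisphosphoglycerate that lowers the oxygen affinity of hemoglobin, had 241 TPM, beside 186 TPM for the triose isomerase Tpi1, 166 TPM for the mutase Pgam1 and 123 TPM for the kinase Pgk1. Eno2 at 0.96 TPM and Aldoc at 1.33 TPM were lowest. The 34 genes held from 0.625% to 1.13% of all TPM in a library, with medians of 0.746% for WT Control, 0.708% for KO Control, 0.761% for WT T1D and 0.814% for KO T1D.

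**Figure D1:**
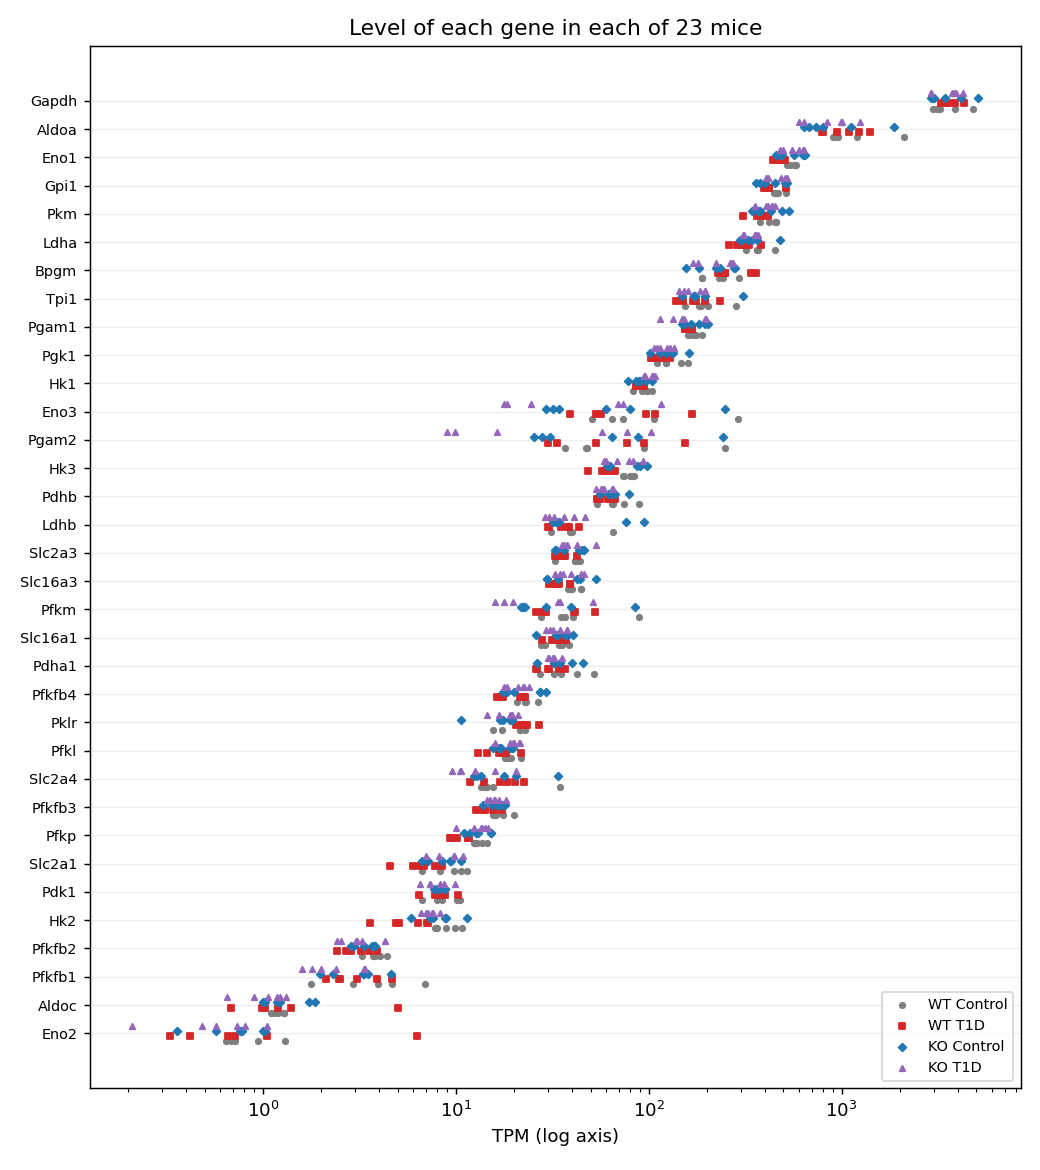
TPM of each of the 34 genes (log axis) in each of 23 mice, with 1 point per mouse, marked by group. Gapdh lies from 2894 to 5113 TPM, and the muscle forms Pgam2 and Eno3 spread from 8.99 to 250.2 TPM and from 17.8 to 291 TPM.

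Isoforms of 1 step differed in level. Among transporters, mean TPM was 39.1 for Slc2a3, 16.8 for Slc2a4 and 8.44 for Slc2a1. Among hexokinases it was 94.5 for Hk1, the broadly expressed form that red cells also use, 72.1 for Hk3 and 7.55 for Hk2, the inducible form of insulin-sensitive tissue. Among phosphofructokinase subunits it was 36.6 for Pfkm, 18.4 for the liver form Pfkl and 12.5 for the platelet form Pfkp. The PFKFB enzymes had 21.8 TPM for Pfkfb4, 16.03 for Pfkfb3, 3.34 for Pfkfb2 and 3.16 for Pfkfb1. The lactate carriers Slc16a3 (MCT4) and Slc16a1 (MCT1) had 38.4 and 33.7 TPM, and Ldhb, the lactate dehydrogenase subunit typical of heart, had 41.3 TPM. Pyruvate dehydrogenase had 63.0 TPM for its β subunit Pdhb and 33.7 TPM for its α subunit Pdha1, and its inhibitory kinase Pdk1 had 8.34 TPM. The muscle forms Pgam2 and Eno3 had means of 72.7 and 83.0 TPM, and Pklr had 19.6 TPM.

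The first question was whether T1D altered these genes in WT bone. None of the 34 genes passed the test (edgeR, Benjamini-Hochberg adjusted p under 0.05 over 14364 genes), where 2.33% of all tested genes did, 215 of them higher and 119 lower. With 1 mouse left out, these 334 calls over all tested genes ran from 0 (without A3767 or A3907) to 1262 (without A3909), and in 22 of 23 such fits they moved by more than 1.5 times. At an unadjusted p under 0.05 these fits held from 2285 to 3825 genes. At an unadjusted p under 0.05 there were 8 of 34 genes (23.5%), beside 22.2% of all tested genes. DESeq2 called 3 of the 34, Hk2 as lower and Pklr and Bpgm as higher, beside 6.98% of all tested genes. The fitted change was above 0 for 25 of 34 genes (73.5%), beside 48.1% of all tested genes, and its median was 0.082 on the log2 scale, beside -0.011 over all tested genes. The SD of log2 CPM between mice of a group had a median of 0.20 over the 34 genes and 0.21 over all tested genes.

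Hk2 was the only gene of the 34 whose WT groups did not overlap in CPM (counts scaled to library size with TMM factors), a pattern found in 2.19% of all tested genes. The gene lies at chr6:82725025-82774454 on GRCm38.p6, the build of all positions given here. It measured 31.6, 35.5, 37.6, 30.2 and 32.5 CPM in the WT Control mice, and 18.4, 26.9 and 29.2 CPM as the lowest, median and highest of the WT T1D mice. Each of the 6 WT T1D mice lay below each WT Control mouse, and the lowest was A3906. The log2 fold change was -0.40 ± 0.12 (SE; 95% confidence interval from -0.65 to -0.15; edgeR adjusted p = 0.0624). DESeq2 gave an adjusted p of 0.0308, limma on log2 (TPM + 1) gave -0.61 with an adjusted p of 0.00975, and over all fits the adjusted p ran from 0.00975 to 0.999. Without A3905 and A3906, the mice with the lowest osteoblast marker sums, the edgeR change was -0.31 with an adjusted p of 0.346. KO Control mice had 25.2, 30.3 and 41.9 CPM and KO T1D mice 26.2, 29.1 and 32.7 CPM (lowest, median and highest), so these groups overlapped. Hk2 was lower in mice with more erythroid marker RNA (r = -0.70 over 23 mice, permutation p = 0.00039). An r below -0.5 with these markers was found for 17% of all tested genes. With muscle marker RNA, r of Hk2 was 0.36 over 23 mice (permutation p = 0.0891). Within groups r was 0.65 for the muscle and -0.48 for the erythroid markers. With the muscle score in the fit, the T1D difference of Hk2 in WT was -0.44 (edgeR adjusted p = 0.0279). With the erythroid score in the fit, its T1D difference in WT was -0.17 ± 0.15 (SE, edgeR adjusted p = 0.999). The score itself ran higher in WT T1D, so this fit cannot tell T1D and erythroid RNA apart.

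**Figure D2:**
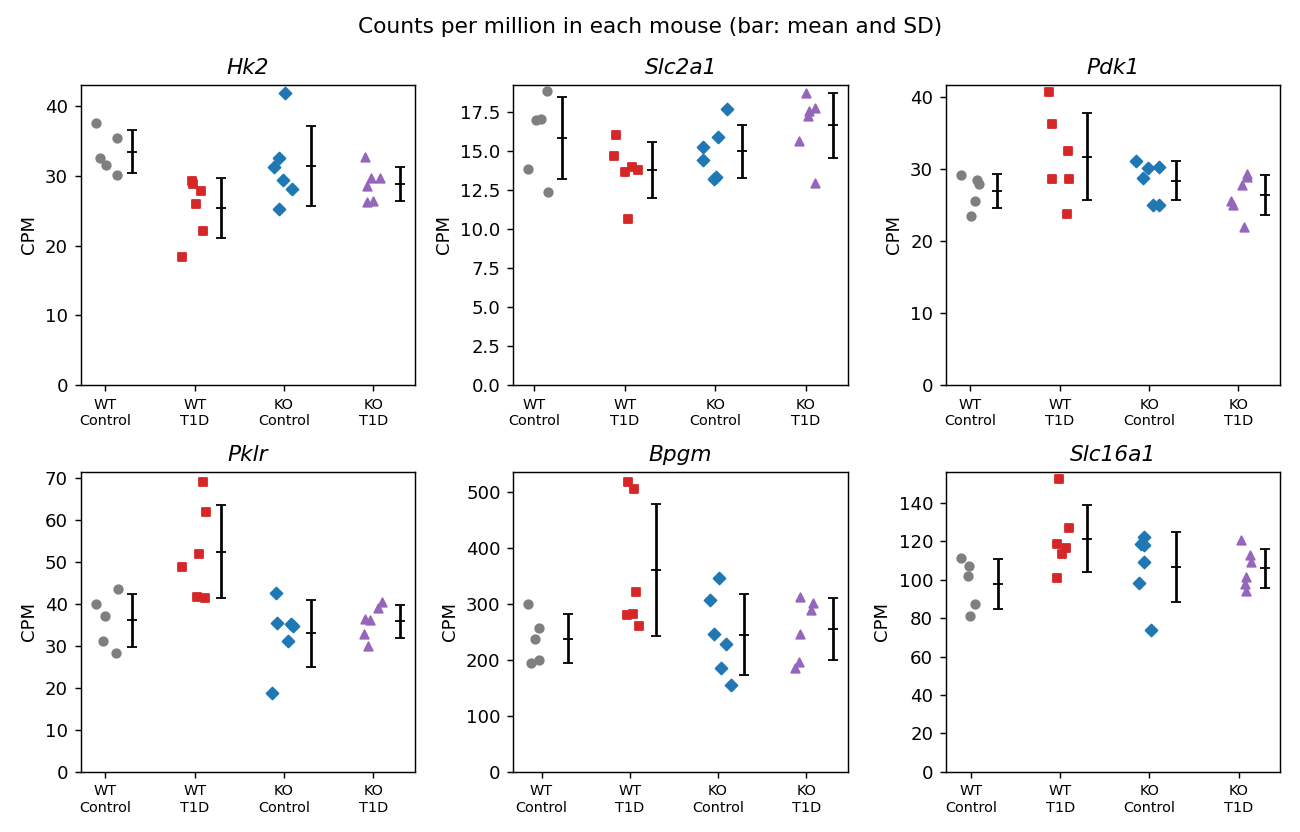
CPM (y axes) of Hk2, Slc2a1, Pdk1, Pklr, Bpgm and Slc16a1 in each mouse by group (x axes), with the mean and SD of each group. All 6 WT T1D points of Hk2 lie below the WT Control points, and the highest WT T1D points of Pklr and Bpgm are those of A3905 and A3906.

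The other transporters and hexokinases overlapped between the WT groups. Slc2a3, the most abundant transporter, measured 128, 106, 103, 115 and 85.1 CPM in WT Control and 93.0, 122 and 136 CPM (lowest, median, highest) in WT T1D. In the mice labelled Sarm1-KO it measured 94.9, 108 and 117 CPM with saline and 97.0, 107 and 146 CPM with T1D. No pair of these groups was separate, and the log2 fold changes were 0.14 ± 0.12 (SE) in WT and 0.086 ± 0.11 in KO. Hk1 measured 270.4, 255, 197, 236 and 244 CPM in WT Control and 230.2, 287 and 328 CPM in WT T1D. Of the WT T1D mice, 4 of 6 lay above every WT Control mouse, with a log2 fold change of 0.23 ± 0.096 (edgeR adjusted p = 0.157). In the mice labelled Sarm1-KO, Hk1 measured 188, 241 and 266 CPM with saline and 255, 275 and 289 CPM with T1D (log2 fold change 0.21 ± 0.091, edgeR adjusted p = 1.0). Hk1 alone of the 34 had an unadjusted p under 0.05 for T1D in each genotype. Slc2a1 had log2 fold changes of -0.20 ± 0.12 in WT and 0.15 ± 0.11 in KO, and Hk3 of -0.10 ± 0.12 and -0.011 ± 0.11.

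In the upper steps, Aldoa, the aldolase of muscle and red cells, measured 1000.0, 844, 1866, 946 and 1139 CPM in WT Control and 907, 1288 and 1404 CPM in WT T1D. The high Control value was that of A3903, the library with the most muscle marker RNA. With saline, KO mice had 658, 785 and 1772 CPM, the highest in A3679, and with T1D they had 638, 942 and 1339 CPM. The log2 fold change was 0.063 ± 0.24 (SE) in WT and -0.053 ± 0.23 in KO. The isomerases Gpi1 and Tpi1 had 0.18 ± 0.11 and 0.094 ± 0.14 in WT, and the phosphofructokinase subunits Pfkl and Pfkp had 0.10 ± 0.086 and -0.072 ± 0.075.

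In the lower steps, Gapdh, often a reference gene in qPCR, measured 3074, 2636, 3899, 2633 and 3302 CPM in WT Control and 3418, 3719 and 4815 CPM in WT T1D. Of the WT T1D mice, 3 of 6 lay above every WT Control mouse, with a log2 fold change of 0.32 ± 0.14 (SE, edgeR adjusted p = 0.193). KO mice had 2570.2, 2942 and 4386 CPM with saline and 2569, 3561 and 3821 CPM with T1D, which overlap (log2 fold change 0.060 ± 0.14). Pgk1, Pgam1, Eno1 and Pkm had log2 fold changes of 0.082 ± 0.091, 0.19 ± 0.11, 0.081 ± 0.091 and 0.082 ± 0.085 in WT, each with a 95% confidence interval that held 0.

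Where pyruvate is turned into lactate, Ldha measured 368, 377, 449.8, 389 and 381 CPM in WT Control and 381, 396 and 432 CPM in WT T1D. KO mice had 323, 369 and 502 CPM with saline and 334, 396 and 437 CPM with T1D. All 4 groups overlapped, and the log2 fold change was 0.032 ± 0.093 (SE) in WT and 0.013 ± 0.089 in KO. Ldhb and the lactate exporter Slc16a3 had 0.038 ± 0.23 and 0.046 ± 0.11 in WT.

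Where pyruvate enters the mitochondrion, Pdhb measured 56.7, 60.6, 80.3, 72.9 and 61.4 CPM in WT Control and 65.0, 68.9 and 76.7 CPM in WT T1D, with 59.4, 63.3 and 75.4 CPM for KO Control and 56.0, 57.7 and 68.0 CPM for KO T1D. These groups overlapped, with a log2 fold change of 0.063 ± 0.085 (SE) in WT and -0.091 ± 0.081 in KO. Pdk1 measured 23.6, 28.5, 29.2, 28.0 and 25.5 CPM in WT Control and 23.8, 28.6, 32.5, 36.2, 40.8 and 28.6 CPM in the WT T1D mice, of which A3905 and A3906 were highest (log2 fold change 0.24 ± 0.11, edgeR adjusted p = 0.211). Pfkfb4, the most abundant PFKFB enzyme, measured 54.5, 55.6, 47.4, 45.4 and 49.3 CPM in WT Control and 43.2, 46.8 and 72.1 CPM in WT T1D, with 37.8, 52.7 and 60.3 CPM for KO Control and 42.0, 49.96 and 53.3 CPM for KO T1D. Its groups overlapped as well (log2 fold change 0.085 ± 0.14 in WT). Pfkfb1, Pfkfb2, Pfkfb3 and Pdha1 had -0.086 ± 0.28, 0.017 ± 0.13, 0.088 ± 0.074 and -0.012 ± 0.10 in WT.

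The scale set the sign of many of these small differences. On log2 (TPM + 1), the median change of all tested genes with T1D in WT was -0.24, and 19 of the 34 genes had the opposite sign to the CPM fit. There limma called Slc2a1, Hk2, Pfkp and Hk3 as lower, at -0.43, -0.61, -0.30 and -0.39, all below the median of all genes, where it called 35.3% of all tested genes as lower. Erythroid marker sums had a median of 400303 TPM in WT T1D and 291316 TPM in WT Control, and their part in this shift was not tested.

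**Figure D3:**
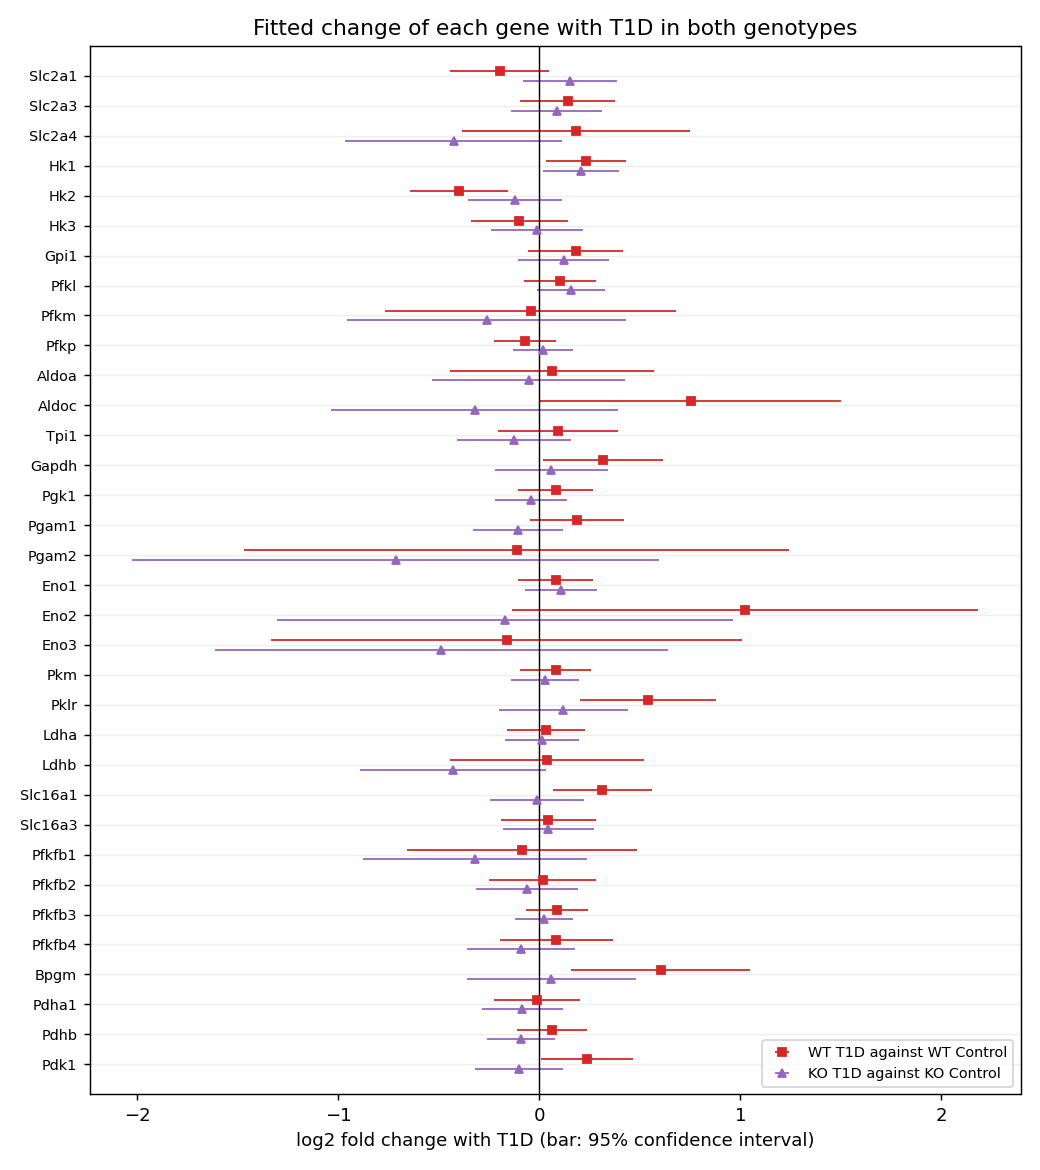
Log2 fold change with T1D (x axis) of each of the 34 genes in WT mice and in mice labelled Sarm1-KO, with 95% confidence intervals from edgeR as bars. In WT the interval of Hk2 runs from -0.65 to -0.15 and that of Pklr from 0.20 to 0.88, and the intervals of Pgam2, Eno3 and Eno2 are the widest.

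The muscle isoforms varied widely between mice. The SD of log2 CPM within groups was 1.18 for Pgam2 (chr11:5801637-5803796), 0.99 for Eno3 (chr11:70653125-70662513), 0.60 for Pfkm and 0.47 for Slc2a4. Pgam2, the muscle mutase, measured 29.9, 26.0, 134, 21.1 and 53.2 CPM in WT Control and 24.4, 42.0 and 92.3 CPM in WT T1D, with 14.1, 30.1 and 137 CPM for KO Control and 5.53, 21.9 and 65.7 CPM for KO T1D. Its highest values came from A3903 and A3679 and its lowest from A3675 and A3676, which also had the most and the least muscle marker RNA. Eno3, the muscle enolase, measured 70.2, 68.9, 268, 51.1 and 104 CPM in WT Control and 53.6, 92.8 and 171 CPM in WT T1D. KO mice had 29.1, 51.6 and 239 CPM with saline and 18.7, 48.7 and 128 CPM with T1D, so the groups overlapped.

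Across the 23 mice, log2 CPM followed the mean log2 CPM of the 15 muscle markers, with r of 0.97, 0.97, 0.96 and 0.85 and rho of 0.95, 0.97, 0.95 and 0.86 for Pgam2, Eno3, Pfkm and Slc2a4. Each p for r was 1e-05, the smallest that the permutations could give, and 7.56e-05 after adjustment over 68 relations. Without A3675 and A3676, the 2 mice farthest from the median, r was 0.95, 0.97, 0.97 and 0.83, within the 19 mice A36 to A39 it was 0.97, 0.97, 0.96 and 0.88, and within groups it was 0.97, 0.96, 0.96 and 0.83. The relation passed for 13 genes (adjusted permutation p under 0.05). Among them was Aldoa (r = 0.92), the aldolase of muscle and red cells, which was not listed with the muscle isoforms. Genes with no tissue class also passed, such as Tpi1 (r = 0.88), Ldha (0.79) and Gapdh (0.67). An r above 0.5 was found for 13 of the 34 genes (38.2%) and for 4.65% of all tested genes, as a description. With T1D in WT, Pgam2, Eno3, Pfkm and Slc2a4 had log2 fold changes of -0.11 ± 0.66, -0.16 ± 0.57, -0.043 ± 0.35 and 0.18 ± 0.27 (SE), and in KO they had -0.71 ± 0.63, -0.49 ± 0.55, -0.26 ± 0.34 and -0.43 ± 0.26. Without A3903 the WT values of Pgam2, Eno3 and Pfkm were 0.58, 0.45 and 0.30, on the other side of 0, and that of Slc2a4 was 0.49. Muscle marker sums had a median of 3007 TPM in WT Control, 2148 TPM in KO Control, 4615 TPM in WT T1D and 2429.6 TPM in KO T1D.

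**Figure D4:**
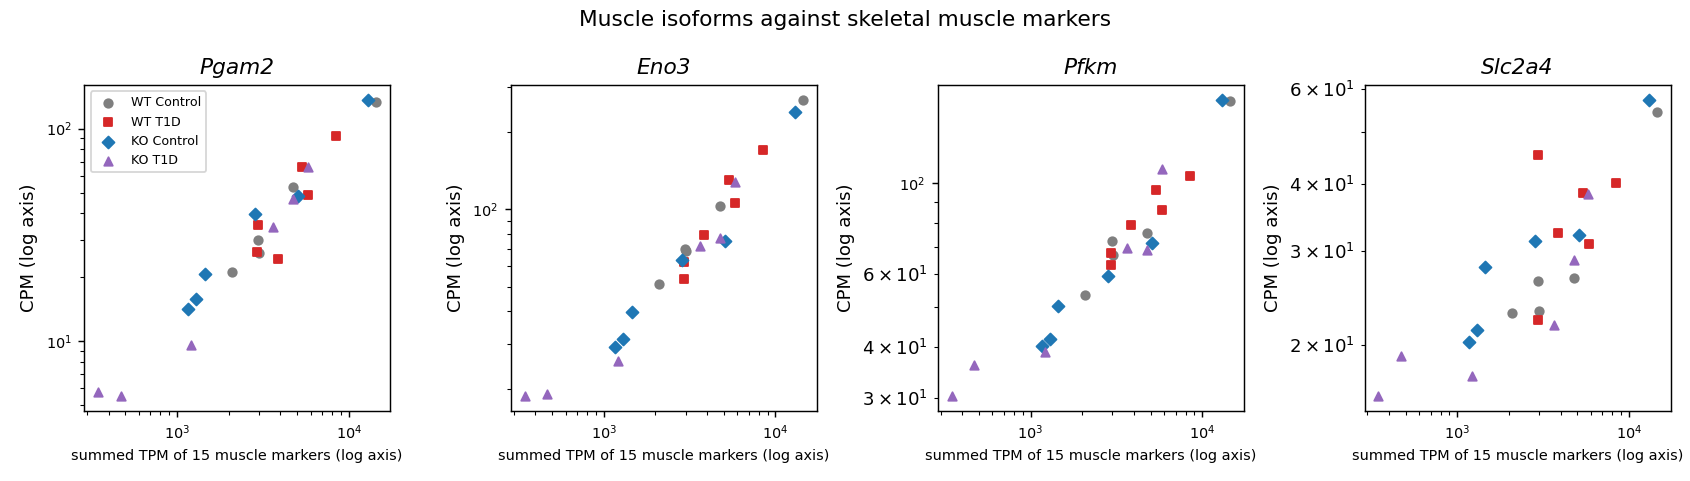
CPM of Pgam2, Eno3, Pfkm and Slc2a4 (y axes, log) against the summed TPM of 15 skeletal muscle markers (x axes, log), with 1 point per mouse, marked by group. The points of all groups rise together, from 348 TPM in a KO T1D mouse to 14463 TPM in a WT Control mouse.

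The red cell isoforms had higher means in WT T1D but did not pass the test in edgeR. Pklr (chr3:89136122-89146815), the pyruvate kinase of red cells and liver, measured 43.7, 40.1, 37.3, 28.4 and 31.2 CPM in WT Control and 41.8, 48.9, 51.9, 61.9, 69.1 and 41.5 CPM in the 6 WT T1D mice. Of these, 4 lay above every WT Control mouse, and A3906 and A3905 were highest. The log2 fold change was 0.54 ± 0.16 (SE; 95% confidence interval from 0.20 to 0.88; edgeR adjusted p = 0.0651). Bpgm (chr6:34476356-34505136) measured 258, 300.5, 237, 199 and 195 CPM in WT Control and 283, 281, 322, 506, 519 and 261 CPM in WT T1D. A3906 and A3905 were again highest, 3 of 6 WT T1D mice lay above every WT Control mouse, and the log2 fold change was 0.60 ± 0.21 (edgeR adjusted p = 0.105). KO Control and KO T1D mice had 156, 238 and 347 CPM and 185, 269 and 314 CPM (lowest, median and highest), which overlap. Slc16a1 (chr3:104638664-104658462), which carries lactate across the red cell membrane, measured 111, 102, 107, 87.4 and 81.2 CPM in WT Control and 113, 127, 116, 119, 152 and 101 CPM in WT T1D. Of these, 5 of 6 lay above every WT Control mouse, with a log2 fold change of 0.31 ± 0.12 (edgeR adjusted p = 0.124). DESeq2 called Pklr (adjusted p = 0.0252) and Bpgm (adjusted p = 0.0476). With only mice A36 to A39, edgeR called Hk2 (-0.48), Pklr (0.76) and Bpgm (0.89), where the WT T1D group is A3905, A3906 and A3909 and 15.5% of all tested genes passed. Without A3905 and A3906 the changes were 0.35 for Pklr and 0.27 for Bpgm, and no gene of the table passed in edgeR (1571 had an unadjusted p under 0.05).

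These genes followed the erythroid markers. For Bpgm, Pklr, Slc16a1, Hk1, Pdk1, Hk2 and Slc2a1, in that order, r with the mean log2 CPM of the erythroid markers was 0.91, 0.90, 0.87, 0.78, 0.62, -0.70 and -0.55 over the 23 mice, and rho was 0.85, 0.74, 0.82, 0.73, 0.38, -0.70 and -0.57. These 7 passed for r, with adjusted permutation p from 7.56e-05 to 0.022, whereas rho of Pdk1 had a permutation p of 0.0764. An r above 0.5 was found for 5 of the 34 genes (14.7%) and for 13.8% of all tested genes, and an r below -0.5 for 2 of the 34 (5.88%) and for 17% of all tested genes. Without A3905 and A3906, the 2 mice farthest from the median, r was 0.82, 0.82, 0.87, 0.68, 0.26, -0.54 and -0.41, so that the relation of Pdk1 rested on those mice. Within the A36 to A39 mice r was 0.92, 0.89, 0.86, 0.77, 0.71, -0.71 and -0.54, and within groups it was 0.88, 0.87, 0.85, 0.79, 0.53, -0.48 and -0.48. When the erythroid score entered the fit as a covariate, the T1D difference in WT was -0.24 for Bpgm, -0.081 for Pklr and -0.11 for Slc16a1, and no gene of the table passed in edgeR (562 had an unadjusted p under 0.05). In WT this score ran from 9.97 to 10.5 in Control mice and from 10.5 to 11.3 in T1D mice. Score and T1D thus went largely together, and this fit cannot tell them apart.

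**Figure D5:**
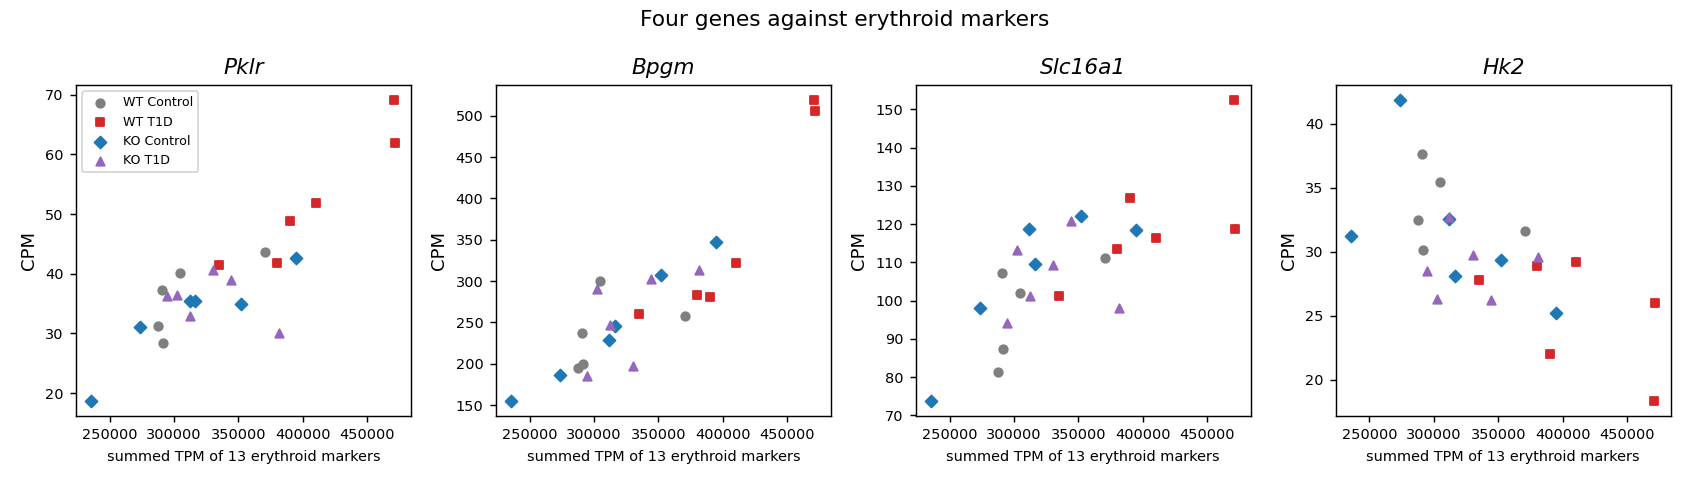
CPM of Pklr, Bpgm, Slc16a1 and Hk2 (y axes) against the summed TPM of 13 erythroid markers (x axes), with 1 point per mouse, marked by group. Pklr and Bpgm are highest in the WT T1D mice with the highest sums (472078 and 470768 TPM), where Hk2 has 26.0 and 18.4 CPM.

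The nerve isoforms rested on 1 library. Aldoc (chr11:78323073-78327781) measured 2.25, 2.03, 2.15, 2.31 and 1.93 CPM in WT Control and 9.96, 2.07, 2.24, 1.75, 2.95 and 2.61 CPM in WT T1D. Eno2, the neuron-specific enolase, measured 1.20, 0.987, 1.64, 1.35 and 2.20 CPM in WT Control and 11.4, 1.36, 0.746, 0.962, 1.56 and 2.00 CPM in WT T1D. For both genes the high value was that of A1764, where 10 of the 12 brain markers were also highest. The log2 fold change was 0.75 ± 0.36 (SE) for Aldoc and 1.02 ± 0.56 for Eno2, and without A1764 it was 0.13 and -0.15.

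The second question was whether T1D altered these genes in the mice labelled Sarm1-KO. In edgeR 0% of all tested genes passed (452 had an unadjusted p under 0.05, and DESeq2 called 0), and Hk1 alone of the 34 had an unadjusted p under 0.05. The median log2 fold change of the 34 genes was -0.048, with 14 above 0 and 20 below, beside -0.0016 over all tested genes. None of the 34 had separate KO groups, where 0.258% of all tested genes did. Pklr measured 18.7, 35.1 and 42.6 CPM with saline and 30.1, 36.4 and 40.6 CPM with T1D. These overlap, with log2 fold changes of 0.12 ± 0.16 (SE) for Pklr, 0.061 ± 0.20 for Bpgm, -0.0095 ± 0.11 for Slc16a1 and -0.12 ± 0.11 for Hk2.

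The T1D change differed between genotypes, which is the interaction, for 0% of all tested genes in edgeR (1467 had an unadjusted p under 0.05) and for 0 in DESeq2. Of the 34 genes, 3 (8.8%) had an unadjusted p under 0.05, beside 10.2% of all tested genes. As KO minus WT on the log2 scale, they were Slc2a1 at 0.35 (95% confidence interval from 0.0084 to 0.69), Pdk1 at -0.34 (from -0.66 to -0.022) and Aldoc at -1.07 (from -2.11 to -0.040). The T1D change of Aldoc in WT was 0.75, and 0.13 without A1764. With 1 mouse left out, that of Pdk1 in WT ran from 0.16 (without A3906) to 0.31 (without A1764). That of Slc2a1 ran from -0.27 (without A1757) to -0.12 (without A3906). The interval of the interaction ran from -0.062 to 0.62 for Hk2, from -0.88 to 0.046 for Pklr and from -1.15 to 0.066 for Bpgm, so that the changes of Hk2, Pklr and Bpgm were not shown to differ between genotypes.

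The third question was how the genotypes differed under the same treatment. Between KO Control and WT Control, 0.0278% of all tested genes passed and none of the 34, of which 0 had an unadjusted p under 0.05 in edgeR and 0 passed in DESeq2. None of the 34 had separate groups there, where 0.613% of all tested genes did, and their log2 differences ran from -0.50 for Eno3 to 0.26 for Ldhb. Between KO T1D and WT T1D, 0.0905% of all tested genes passed in edgeR and none of the 34, of which 10 (29.4%) had an unadjusted p under 0.05, beside 17.1% of all tested genes. Of these 10, Slc2a1 was higher in KO T1D. Slc2a4, Aldoc, Pgam1, Eno2, Pklr, Pfkfb1, Bpgm, Pdhb and Pdk1 were lower. All 15 muscle markers and all 13 tested erythroid markers were also lower in KO T1D, with median log2 differences of -1.09 and -0.46. Of the genes named as lower, Slc2a4 and Pfkfb1 followed the muscle markers (r of 0.85 and 0.68). Pklr, Bpgm and Pdk1 followed the erythroid markers, and the part of either RNA in these differences was not tested. For Aldoc and Eno2 the highest WT T1D value was that of A1764, the library with brain markers. Pklr was the one gene of the 34 with separate groups, as in 0.863% of all tested genes, with at most 40.6 CPM in KO T1D and at least 41.5 CPM in WT T1D. Its log2 difference was -0.55 ± 0.15 (SE, edgeR adjusted p = 0.123), and DESeq2 gave an adjusted p of 0.0345 and called 1.66% of all tested genes. With 1 mouse left out, the 13 edgeR calls over all tested genes ran from 3 (among others without A3905 or A3906) to 95 (without A3909). With only mice A36 to A39, edgeR called Pklr (-0.69) and Pdk1 (-0.43), beside 10.8% of all tested genes. This comparison shares the WT T1D mice with that of T1D in WT. Averaged over genotypes, T1D changed 0.111% of all tested genes in edgeR and none of the 34, of which 5 (14.7%) had an unadjusted p under 0.05, beside 16.4% of all tested genes. DESeq2 called 0 of the 34 and 1.73% of all tested genes there, and the 16 edgeR calls ran from 0 to 211 (without A3909) with 1 mouse left out. Hk1 had the lowest adjusted p of the 34 there (edgeR, 0.22 ± 0.066, adjusted p = 0.12).

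Of 96 further genes, 84 of them of glucose metabolism and its regulation and 12 responsive to hypoxia, 84 were tested. With T1D in WT 3 of the 84 tested passed as higher and 0 as lower, where 2.33% of all tested genes passed. With T1D in KO, in the interaction and between genotypes none passed. Txnip, which high glucose induces and which restrains glucose uptake, measured 273, 353, 320.2, 307 and 267 CPM in WT Control and 429.6, 330.5, 439.6, 556, 608 and 349 CPM in WT T1D. Of these, 4 of 6 lay above every WT Control mouse, and the log2 fold change was 0.57 ± 0.12 (SE, edgeR adjusted p = 0.0367) in WT and 0.30 ± 0.12 (edgeR adjusted p = 1.0) in KO. Txnip also passed averaged over genotypes (0.44 ± 0.084, edgeR adjusted p = 0.0421), where 0.111% of all tested genes did.

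Sord, the polyol pathway enzyme that turns sorbitol into fructose, measured 83.5, 67.7, 70.3, 79.0 and 66.8 CPM in WT Control and 104, 112, 95.9, 83.3, 96.4 and 84.8 CPM in WT T1D. Of these, 5 of 6 lay above every WT Control mouse, with a log2 fold change of 0.39 ± 0.088 (SE, edgeR adjusted p = 0.04). Pck1, the cytosolic entry enzyme of gluconeogenesis, measured 0.0548, 0, 0.622, 0.395 and 0.606 CPM in WT Control and 1.35, 1.03, 0.344, 5.10, 11.2 and 1.17 CPM in WT T1D, highest in A3906 and A3905 (log2 fold change 3.30 ± 0.86, edgeR adjusted p = 0.0476). A3906 and A3905 also had the highest sums of 6 adipocyte markers, at 716 and 637 TPM. The next highest was 369 TPM in A3909, and the part of adipocyte RNA in the Pck1 values was not tested. Without A3905 and A3906 none of Txnip, Sord and Pck1 passed, at 0.35 for Txnip, 0.43 for Sord and 1.52 for Pck1. Leaving out 1 mouse lost the call of Txnip in 6 of 23 fits (A3767, A3903, A3904, A3907, A3905 or A3906), that of Sord in 11 and that of Pck1 in 18, with adjusted p up to 0.111, 0.111 and 0.145 in edgeR.

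In the 6 other lists no gene passed in any comparison. The gene with the largest absolute change in WT was the inositol transporter Slc2a13 among 7 other transporters (-0.58 ± 0.37, SE), the kinase Pdk4 among 11 other pyruvate dehydrogenase genes (0.58 ± 0.28), Taldo1 among 7 pentose phosphate genes (0.21 ± 0.094), Pygl among 10 glycogen genes (0.25 ± 0.15) and the collagen hydroxylase P4ha2 among 12 other hypoxia-responsive genes (-0.74 ± 0.39). Pdk4, which restrains pyruvate oxidation in fasting, had 27.6 ± 7.98 CPM (SD, n = 5) in WT Control and 41.3 ± 10.5 CPM (n = 6) in WT T1D, with an edgeR adjusted p of 0.221.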

How the data were processed

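PolyA RNA of bone from 23 mice had been sequenced. The authors deposited RSEM expected counts as whole numbers, without normalization, and a table of TPM values. The study's methods name SOAPnuke for read filtering, HISAT and Bowtie2 for alignment, and the build GRCm38.p6. Reads shared by similar genes were divided by RSEM, so values of near-identical copies are estimates.

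A gene was tested where 5 or more libraries held 10 or more counts. The main test was edgeR 4.0.16 in R 4.3.3 (TMM, quasi-likelihood, 4 group means in 1 fit) on the expected counts, with Benjamini-Hochberg adjustment over 14364 genes. Alternatives were DESeq2 1.42.0, other size factors, no gene filter, limma 3.58.1 on log2 TPM with an offset of 1 or 0.1, mice A36 to A39 alone, marker scores as covariates, and libraries left out. Marker scores were means of log2 (CPM + 0.5), and relations with them were tested with 100000 permutations. In data simulated for T1D in WT (3 runs over 14364 genes, 200 changed by 1 on the log2 scale), from 76.0% to 82.5% of the changed genes were found, and for the interaction from 64.5% to 69.5%. Smaller changes, such as that of Hk2 (-0.40), were not simulated, so these shares do not cover them. Each simulated gene was also drawn on its own, without shifts shared by many genes such as those in A3905 and A3906. The shares may therefore be too high for these libraries. Mice of 1 group differed beyond counting noise in all 55 pairs.

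The 34 genes and the lists were chosen with earlier results of these data known. All 34 were named and the most abundant of each role was given in full. In each further list the genes that passed were named, or else the largest absolute change among genes with a mean of at least 1 CPM. For the list of other glycolysis and lactate genes, that gene is not reported here. Hk2, Pklr, Slc16a1, Pdk1, Pgam2, Eno3, Aldoc and Eno2 were given in full after their values were seen. Intervals are from the fit and cover the spread between mice.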

Additional observations from a re-analysis of the deposited data

Results flagged for a closer look

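In each group, the highest or lowest mouse was compared with its neighbor for each of the 34 genes, and 18 of 136 groups held a mouse far from the rest of its group (Dixon's criterion). Chance gives about 1 in 20 for normally distributed values, which CPM need not be. The share over all tested genes is not given here, so whether 18 is many for these libraries is not known. The 136 are the 34 genes in the same mice, and many of these genes vary together, so they are not separate trials. Most flags came from A3903 and A3679. In WT Control the mouse far from the rest was A3903, with 54.4 CPM for Slc2a4 (others 22.9 to 26.7), 158 CPM for Pfkm, 1866 CPM for Aldoa, 134 CPM for Pgam2, 268 CPM for Eno3, 450 CPM for Ldha (others 368 to 389) and 51.6 CPM for Ldhb. In KO Control it was A3679, with 57.4 CPM for Slc2a4, 159 CPM for Pfkm, 1772 CPM for Aldoa, 319 CPM for Tpi1 (others 175 to 196), 137 CPM for Pgam2, 239 CPM for Eno3 and 75.4 CPM for Pdhb. These 2 mice had the highest muscle marker sums, and the part of that in these values was not tested. Pfkl was low in A3766 (KO Control) at 34.4 CPM, against 39.1 to 41.6 CPM. In WT T1D, A1764 stood apart with 9.96 CPM for Aldoc and 11.4 CPM for Eno2, and A3905 with 882 CPM for Pkm, against 681 to 722 CPM in the others.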

How the results depend on the processing

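The count of genes changed with T1D in WT was 0 and became 3 in DESeq2 and within mice A36 to A39, 2 with the muscle score as a covariate, 4 on either TPM scale, and from 0 to 2 when 1 mouse was left out. The calls made by leaving out 1 mouse were of Hk2 or Pklr, and came without A1757, A1764, A1758, A3909 or A3766. Between KO T1D and WT T1D the count became 1 in DESeq2 and 2 within A36 to A39, and averaged over genotypes it became 1 on either TPM scale. For T1D in KO, the interaction and KO Control against WT Control it was 0 in every fit run. Leaving out A1764, A3679 and A3903, chosen after seeing the data, gave 0 in all comparisons. Over all tested genes, T1D in WT gave 334 calls, and 1002 in DESeq2, 88 with no filter, 2211 within A36 to A39, 608 with the muscle score, 0 with the erythroid score, 76 without A1764, A3679 and A3903, and 0 without A3905 and A3906. With 1 mouse left out it gave from 0 to 1262 calls, with 0 without A3767 or A3907, 3 without A3903, 13 without A3904, 7 without A3905, 11 without A3906, 29 without A1787, 538 without A1758, 688 without A1757, 963 without A1764 and 1262 without A3909. Leaving out 1 KO mouse gave from 51 (A3670) to 535 (A3766). Of 5154 calls on log2 (TPM + 1), 83 were higher, and of 5173 on log2 (TPM + 0.1), 80 were higher.

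Log2 fold changes with T1D in WT took the opposite sign as follows, and the cause was not tested. On log2 (TPM + 1), with the value for an offset of 0.1 in parentheses where it differs, they were Slc2a3 -0.15, Slc2a4 -0.020 (-0.019), Hk1 -0.063, Gpi1 -0.13, Pfkl -0.18 (-0.19), Aldoa -0.18, Tpi1 -0.18, Pgk1 -0.21, Pgam1 -0.10 (-0.11), Eno1 -0.21, Pkm -0.21, Ldha -0.25, Ldhb -0.22 (-0.23), Slc16a3 -0.25 (-0.26), Pfkfb2 -0.24 (-0.31), Pfkfb3 -0.18 (-0.19), Pfkfb4 -0.24 (-0.25), Pdhb -0.21, Pdk1 -0.070 (-0.077). With the erythroid score they were Slc2a1 0.023, Hk1 -0.075, Hk3 0.055, Pfkm 0.25, Pgam2 0.78, Eno3 0.55, Pklr -0.081, Slc16a1 -0.11, Pfkfb1 0.096, Pfkfb2 -0.12, Pfkfb3 -0.0074, Pfkfb4 -0.028, Bpgm -0.24, Pdha1 0.13 and Pdk1 -0.021. Without A3905 and A3906 they were Pfkm 0.036, Pgk1 -0.0072, Pgam2 0.20, Eno1 -0.0098, Eno3 0.064, Ldhb -0.031, Slc16a3 -0.022, Pfkfb1 0.020, Pfkfb2 -0.046 and Pfkfb4 -0.16. Without A1764, A3679 and A3903 they were Pfkm 0.30, Pgam2 0.59, Eno2 -0.11, Eno3 0.44, Pfkfb1 0.13 and Pdha1 0.10. Eno2 was -0.023 within A36 to A39, and Ldhb was -0.0048 with the muscle score. With 1 mouse left out, values ran for Pfkm from -0.17 to 0.30, Aldoa from -0.032 to 0.30, Pgam2 from -0.39 to 0.58, Eno2 from -0.15 to 1.23, Eno3 from -0.38 to 0.45, Ldhb from -0.030 to 0.21, Pfkfb1 from -0.27 to 0.17, Pfkfb2 from -0.048 to 0.092, Pfkfb4 from -0.0083 to 0.14 and Pdha1 from -0.081 to 0.10. No paired analysis was possible because no mouse number is shared between groups. Depth limits Eno2 and Aldoc most, with as few as 7 and 24 counts in a library.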
